A study of Arabidopsis thaliana with 36 samples.

Results

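The genes described here are 8 genes of jasmonate synthesis and the paired vegetative storage protein genes VSP1 and VSP2, 10 genes of the 34218 features counted in each library. They were chosen by their locus codes: LOX2 (AT3G45140), LOX3 (AT1G17420), LOX4 (AT1G72520), LOX6 (AT1G67560), AOS (AT5G42650), AOC1 (AT3G25760), AOC2 (AT3G25770), OPR3 (AT2G06050), VSP1 (AT5G24780) and VSP2 (AT5G24770). RNA was sequenced from shoots (rosettes) and roots of Arabidopsis thaliana with 3 replicates per genotype and tissue, 36 libraries in all. The labels do not say whether replicates came from separate plants or pools, so p-values measure the spread between these samples only. The mutants were nlp2-2, nlp2-3, nlp7-1 and the double mutant nlp2-3 nlp7-1, which carry altered alleles of the nitrate-responsive transcription factor genes NLP2, NLP7 or both, and the wild types were Col-4 and Col-0. All plants were 42 days old, had been stratified for 3 days, and grew in sand culture with 5 mM nitrate under 8 h of light at 21 °C and 16 h of dark at 18 °C. The labels name no parent line for a mutant and do not describe the alleles, so nlp2-2 was set against Col-4 and, as a second comparison, against Col-0. Each library comes from bulk tissue, in which fewer cells of a type and less RNA per cell cannot be told apart.

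Jasmonates are lipid-derived hormones of wounding, defence and stamen development. In the plastid, 13-lipoxygenases (LOX2, LOX3, LOX4 and LOX6) oxygenate linolenic acid, allene oxide synthase (AOS) turns the product into an allene oxide, and allene oxide cyclases (the AOC genes) close its ring to give OPDA. In the peroxisome OPR3 reduces OPDA, beta-oxidation shortens the chain, and JAR1 joins jasmonic acid to isoleucine, the form that binds the receptor COI1 and releases MYC transcription factors from JAZ repressors. VSP1 and VSP2 encode acid phosphatase-like storage proteins of leaves and are widely used as readouts of the MYC branch of jasmonate signalling.

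Root libraries held 18385020 to 28538665 counts in total and shoot libraries 18150510 to 31657474. NLP2 was lower in both tissues of nlp2-2, nlp2-3 and the double mutant, and NLP7 was lower in both tissues of nlp7-1 and the double mutant, with log2 fold changes between -0.41 and -2.57 and adjusted p-values of at most 0.0107. Of the marker lists, 12 leaf photosynthesis genes summed to 58500 to 68300 FPKM in shoots and 28.4 to 96.1 FPKM in roots, and 7 root genes summed to 11.5 to 20.3 FPKM in shoots and 1600 to 2570 FPKM in roots. A list of 5 floral genes did not exceed 1.07 FPKM in sum in any library.

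In Col-0 plants several genes of the pathway were far more abundant in shoots than in roots, but not every step was. At the lipoxygenase and cyclase steps a different family member led in each tissue. Levels are given as FPKM, which divides by transcript length and can be compared between genes. In Col-0 shoots the order of mean levels was LOX2 (305 ± 45 FPKM, SD, n = 3), AOS (172), AOC2 (47.3), OPR3 (33.3), VSP2 (24.7), AOC1 (23.6), VSP1 (19), LOX6 (14), LOX3 (8.33) and LOX4 (5.82). The ranges of VSP2 and AOC1, of AOC1 and VSP1, and of VSP1 and LOX6 overlapped. In Col-0 roots the order was VSP2 (38 ± 3 FPKM, SD, n = 3), AOS (23), LOX6 (21.2), OPR3 (21), VSP1 (14.6), LOX4 (0.759), AOC2 (0.0832), LOX3 (0.0435) and LOX2 (0.0307), and AOC1 had no count in any of the 3 libraries. AOS, LOX6 and OPR3 thus lay close together in roots, where LOX2, the leading transcript of shoots, was barely counted.

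**Figure D1:**
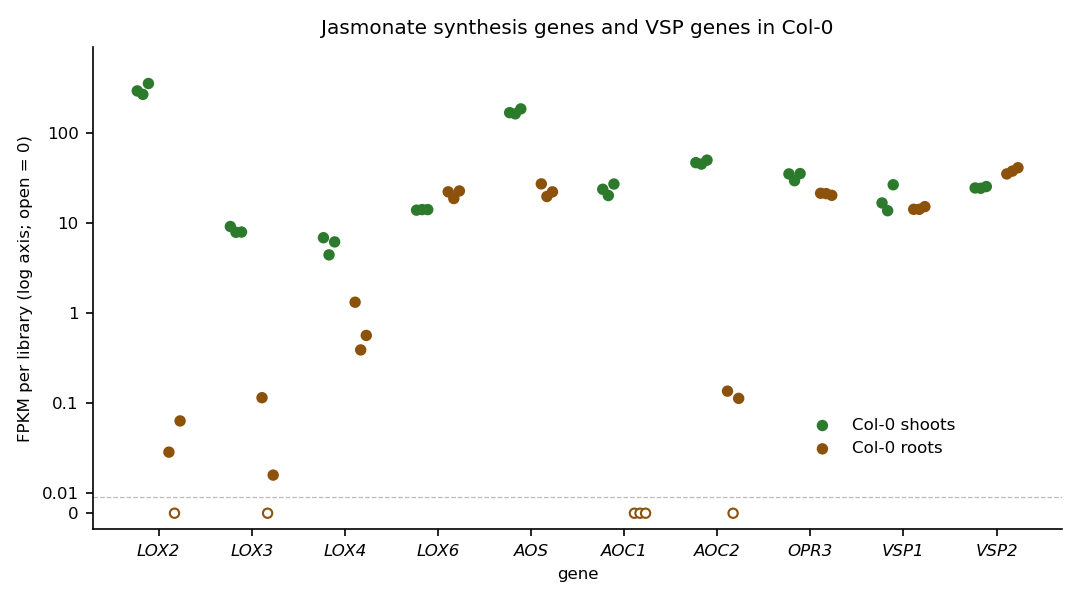
FPKM of the 10 genes in each Col-0 library on a log axis, 3 shoot libraries to the left of 3 root libraries for each gene, with open circles on the lowest line for libraries at 0. LOX2 lies at 268 to 354 FPKM in shoots and at most 0.0635 FPKM in roots, whereas LOX6, OPR3, VSP1 and VSP2 lie within the same decade in both tissues.

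Of the summed 13-lipoxygenase FPKM, LOX2 took 91.5 ± 1.0% in Col-0 shoots (SD, n = 3), and LOX6 took 96.3 ± 2.2% in Col-0 roots. At the cyclase step, AOC2 took 43.8%, AOC4 32.1%, AOC1 21.8% and AOC3 2.3% of the summed FPKM in Col-0 shoots. In Col-0 roots AOC4 took 58.9% and AOC3 41%, and AOC2 and AOC1 were at or near 0. The summed cyclase FPKM was 108 ± 8.9 in Col-0 shoots and 91 ± 6.6 in Col-0 roots (SD, n = 3 each). FPKM keeps library totals, and on that scale the cyclase total differed little between the tissues. The trimmed-mean scaling used for the calls below raises shoots over roots, so near equality of the totals depends on the scaling. AOC1, AOC2 and AOC3 lie next to one another in the annotation and are close copies, as are VSP1 and VSP2, which are parted by a single pseudogene, so the split of reads within each group is uncertain.

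Of the 10 genes, 8 were called higher in Col-0 shoots than in Col-0 roots in a joint fit of both tissues. Calls were made by the edgeR quasi-likelihood test at a Benjamini-Hochberg adjusted p under 0.05. Of all 21554 genes tested there, 78.4% were called in either direction and 7848 were called higher in shoots. LOX2, LOX3, AOC1 and AOC2 passed the count filter of this fit mainly through shoot libraries, where they were high. Their calls are therefore given as a description. AOS had 168, 163 and 185 FPKM in shoots, against 27.2, 19.7 and 22.2 FPKM in roots (log2 fold change 3.62 ± 0.15 SE, adjusted p = 2.89e-19). OPR3 had 35.1, 29.5 and 35.4 FPKM in shoots, against 21.4, 21.2 and 20.3 FPKM in roots (1.38 ± 0.18, adjusted p = 3.97e-08). Both genes separated the tissues without overlap, as did 88.4% of all genes tested there. LOX2 held 66198 counts over the 3 shoot libraries and 6 over the 3 root libraries, a ratio scaled to depth of 9510 with a 95% interval of 4370 to 25900 for counting error only. AOC1 held 1982 counts in shoots and 0 in roots, at least 570-fold higher in shoots against a floor of 3 counts over the group. AOC2 held 4357 counts in shoots and 7 in roots, a ratio of 537 (260 to 1340).

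LOX4 was called higher in shoots (log2 fold change 3.61). LOX3 was also called higher, but it had 8, 0 and 1 counts in Col-0 roots, and its fitted log2 fold change ranged from 3.16 to 10.35 over the alternative settings, so no size is given. VSP1, VSP2 and LOX6 sat closer together between the tissues. VSP1 had 16.7, 13.7 and 26.6 FPKM in shoots, against 14.2, 14.2 and 15.2 FPKM in roots, and the groups overlapped. VSP2 had 24.5, 24.3 and 25.4 FPKM in shoots, against 35.1, 37.7 and 41.1 FPKM in roots, and LOX6 had 13.9, 14.1 and 14.1 FPKM in shoots, against 22.2, 18.7 and 22.7 FPKM in roots. Between tissues the values of all genes depend on the scaling. Trimmed-mean (TMM) scaling raises shoots over roots by 0.718 on the log2 scale relative to library totals. Over 13 alternative settings the log2 fold change ranged from 0.64 to 1.47 for OPR3 and from 2.86 to 3.77 for AOS. Both stayed called in all 13, whereas the reading of VSP1 and LOX6 changed. With TMM, VSP1 was called higher in shoots (1.09 ± 0.32, adjusted p = 0.00292), and VSP2 (0.10, adjusted p = 0.79) and LOX6 (0.12, adjusted p = 0.209) were not called. By limma on log2(FPKM + 1) the VSP1 call ended (0.31, adjusted p = 0.307) and LOX6 turned to lower in shoots (-0.56, adjusted p = 1.16e-07). VSP2 was called in 0 of 13 alternative settings, with log2 fold changes of -0.62 to 0.16 and adjusted p-values of at least 0.0639.

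The comparisons of mutants with wild type are within a tissue, where the choice of scaling moved the median gene by less than 0.1. In roots 7 of the 10 genes passed the filter on low counts, and LOX2, AOC1 and AOC2 did not, with at most 10 counts in any root library. LOX3 passed through only 3 root libraries, 2 of the double mutant (23 and 154 counts) and 1 of nlp7-1 (10 counts), so it entered the test mainly through the group where it was high. In shoots all 10 were tested.

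In roots of the double mutant AOS, OPR3 and the minor 13-lipoxygenase gene LOX4 were more abundant than in Col-0, and LOX6 was less abundant. Leaving LOX3 aside, which entered the test through the double mutant's own high libraries, 4 of 6 genes were called, 3 higher and 1 lower, against 25.2% of all root genes in this comparison. AOS had 29.8, 55.1 and 38.6 FPKM in double mutant roots, against 27.2, 19.7 and 22.2 FPKM in Col-0 roots (log2 fold change 0.80 ± 0.17, adjusted p = 0.0024). OPR3 had 27, 31.2 and 25.1 FPKM in double mutant roots, against 21.4, 21.2 and 20.3 FPKM in Col-0 roots (0.37 ± 0.10, adjusted p = 0.00897). For both genes each double mutant library was above each Col-0 library, a separation that 36.9% of all root genes showed in either direction, and replicate 2 of the double mutant was the highest.

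The lipoxygenases showed the same library at the top. LOX4 had 1.47, 6.81 and 1.37 FPKM in double mutant roots, against 1.32, 0.39 and 0.565 FPKM in Col-0 roots (2.02 ± 0.67, adjusted p = 0.0419). LOX3 had 0.318, 2.01 and 0.0752 FPKM in double mutant roots, against 0.115, 0 and 0.0159 FPKM in Col-0 roots (4.02 ± 1.05, adjusted p = 0.00989), given as a description since the filter chose it for those values. Replicate 2 of the double mutant carried most of both averages, and for LOX3 replicate 3 lay within the Col-0 range. LOX6, the main root 13-lipoxygenase, had 19.8, 18.2 and 16.1 FPKM in double mutant roots, against 22.2, 18.7 and 22.7 FPKM in Col-0 roots (-0.27 ± 0.09, adjusted p = 0.0419), with overlapping groups. The LOX6 share of the summed 13-lipoxygenase FPKM was 83.5 ± 14% in double mutant roots and 96.3 ± 2.2% in Col-0 roots (SD, n = 3 each). The sum itself was 22.1 ± 4.8 FPKM in double mutant roots and 22 ± 2.6 FPKM in Col-0 roots, so the lipoxygenase total was nearly equal.

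These root calls rest unevenly on replicate 2 of the double mutant. Without it AOS stayed called (0.52, adjusted p = 0.0057), and the calls of OPR3 (0.27, adjusted p = 0.0683), LOX3 (2.01, adjusted p = 0.122), LOX4 (0.83, adjusted p = 0.305) and LOX6 (-0.28, adjusted p = 0.086) ended. The LOX4 call also ended when Col-0 replicate 2 or Col-0 replicate 3 was removed (adjusted p = 0.143 and 0.128). Removing Col-0 replicate 1, Col-0 replicate 3 or replicate 3 of the double mutant ended the LOX6 call, with adjusted p-values of 0.135, 0.152 and 0.176. When only the compared groups were fitted, 1 gene stayed called, OPR3 (adjusted p = 0.027). AOS then had an adjusted p of 0.0631, LOX4 of 0.185 and LOX6 of 0.112, and LOX3 did not pass the filter.

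**Figure D2:**
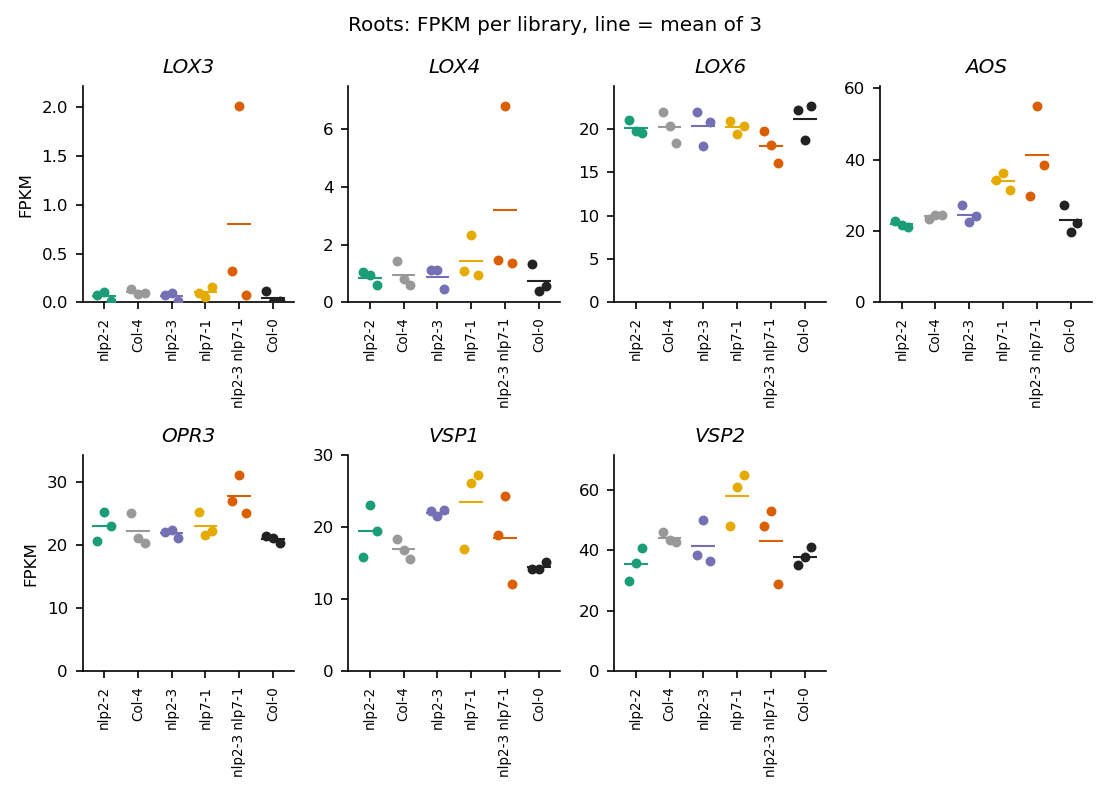
FPKM per root library (linear axes) of the 7 genes tested in roots, with mutants to the left of their wild type and a line at the mean of 3 replicates. Replicate 2 of nlp2-3 nlp7-1 is the highest library for LOX3, LOX4, AOS and OPR3, at 2.01, 6.81, 55.1 and 31.2 FPKM.

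The single mutants gave no call among the 7 genes in roots. Background rates of calls were 7.12% for nlp2-2 against Col-4, 6.84% for nlp2-3 against Col-0 and 7.95% for nlp7-1 against Col-0. In these 3 comparisons edgeR gave an unadjusted p under 0.05 to 0, 1 and 3 of the genes, and DESeq2 called 0, 1 and 3. The nlp7-1 roots came nearest. AOS had 34.2, 36.3 and 31.6 FPKM in nlp7-1 roots, against 27.2, 19.7 and 22.2 FPKM in Col-0 roots (0.54 ± 0.17, adjusted p = 0.0643). VSP1 had 17, 26.1 and 27.3 FPKM in nlp7-1 roots, against 14.2, 14.2 and 15.2 FPKM in Col-0 roots (0.67 ± 0.21, adjusted p = 0.0621). VSP2 had 47.9, 60.9 and 65 FPKM in nlp7-1 roots, against 35.1, 37.7 and 41.1 FPKM in Col-0 roots (0.59 ± 0.19, adjusted p = 0.0754). For all 3 the groups did not overlap, as for 26.4% of all root genes in this comparison, and the test was missed, although the DESeq2 Wald test called each of them.

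The storage protein genes were not called in double mutant roots. VSP1 had 18.9, 24.3 and 12.2 FPKM in double mutant roots, against 14.2, 14.2 and 15.2 FPKM in Col-0 roots (0.31 ± 0.21, adjusted p = 0.317). VSP2 had 47.9, 52.9 and 28.9 FPKM in double mutant roots, against 35.1, 37.7 and 41.1 FPKM in Col-0 roots (0.15 ± 0.19, adjusted p = 0.618). In both genes replicate 3 of the double mutant was the lowest of all 6 libraries and replicate 2 the highest. Without double mutant replicate 3 the VSP1 difference was called (0.53, adjusted p = 0.0346), and without replicate 2 it was 0.05 (adjusted p = 0.892). In nlp2-3 roots VSP1 had 22.2, 21.5 and 22.4 FPKM, against 14.2, 14.2 and 15.2 FPKM in Col-0 roots, without overlap (21.9% of all genes) and without a call (0.57 ± 0.21, adjusted p = 0.125).

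The double mutant was also set against each single mutant. Against nlp2-3 roots, AOS (0.73 ± 0.17, adjusted p = 0.0139) and OPR3 (0.33 ± 0.10, adjusted p = 0.0475) were higher, 2 of 6 with LOX3 aside, against 6.48% of all genes. LOX3 was at 3.75 ± 1.00 (adjusted p = 0.0331), and no nlp2-3 library reached the filter for it. With LOX3 included, 0 of the genes stayed called without nlp2-3 replicate 2 or 3, and 1 without double mutant replicate 2 or nlp2-3 replicate 1. Against nlp7-1, none of the 7 was called (6.51% of all genes) although 3 had an unadjusted p under 0.05 in edgeR. AOS was at 0.26 ± 0.16 (adjusted p = 0.426) and LOX3 at 2.93 ± 0.92 (adjusted p = 0.0725), and LOX3 was the 1 gene that DESeq2 called. The interaction of nlp2-3 and nlp7-1 was called for none of the 7 (0.239% of all genes) by edgeR or DESeq2. VSP1, at -0.93 ± 0.29 (adjusted p = 0.359), was the 1 gene with an unadjusted p under 0.05.

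In shoots AOS moved in opposite directions in the single mutants, and VSP1 was strongly lower in the double mutant. AOS had 230, 221 and 231 FPKM in nlp7-1 shoots, against 168, 163 and 185 FPKM in Col-0 shoots (0.41 ± 0.08, adjusted p = 0.00249). AOS had 148, 138 and 133 FPKM in nlp2-3 shoots, against the same Col-0 values (-0.30 ± 0.08, adjusted p = 0.0301). AOS had 158, 154 and 162 FPKM in double mutant shoots, and was not called against Col-0 (-0.15 ± 0.08, adjusted p = 0.161). The nlp7-1 libraries lay above every other shoot library for AOS, and the nlp2-3 and double mutant libraries all lay below the lowest Col-0 library. Both single mutants were compared with the same 3 Col-0 libraries. AOS was 1 of 10 genes called in nlp7-1 shoots (9.77% of all genes) and 1 of 10 in nlp2-3 shoots (5.8%), so these counts lie near the background.

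The rise of AOS in nlp7-1 shoots stayed called in all 13 alternative settings, with log2 fold changes of 0.38 to 0.45. The fall in nlp2-3 shoots stayed called in 8 of 13. It ended with the replicate number as a block (adjusted p = 0.0571), in a comparison whose same-numbered libraries deviate together. Removing Col-0 replicate 1, Col-0 replicate 3, nlp2-3 replicate 2 or nlp2-3 replicate 3 also ended it, with adjusted p-values of 0.0643, 0.188, 0.118 and 0.134. AOS in nlp2-2 shoots had 135, 156 and 185 FPKM, against 195, 194 and 193 FPKM in Col-4 shoots, without overlap (16.2% of all genes) and just outside the threshold (-0.29 ± 0.08, adjusted p = 0.054). None of the 10 genes was called in nlp2-2 shoots by edgeR, against 3.07% of all genes, although 3 had an unadjusted p under 0.05 and DESeq2 called 1.

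In shoots AOS was lower in the double mutant than in nlp7-1 (-0.57 ± 0.08, adjusted p = 0.00015), and this call held in all 13 settings. VSP1 was the other gene called there (2 of 10, against 7.99% of all genes). Against nlp2-3, the double mutant had more LOX2 (0.59 ± 0.18, adjusted p = 0.0299) and AOC2 (0.59 ± 0.19, adjusted p = 0.0358), 2 of 10 against 26.5% of all genes. LOX2 had 320, 332 and 407 FPKM in double mutant shoots, against 265, 202 and 218 FPKM in nlp2-3 shoots. AOC2 had 50, 52.2 and 57.7 FPKM in double mutant shoots, against 42, 34.2 and 27 FPKM in nlp2-3 shoots. Neither gene overlapped between the groups, as for 42.3% of all genes there, and both calls ended without nlp2-3 replicate 2 or 3 or double mutant replicate 3. The AOC2 call ended in addition without double mutant replicate 1 or 2 and with the replicate block (adjusted p = 0.0563). The highest adjusted p over all settings was 0.129 for AOC2 and 0.119 for LOX2.

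**Figure D3:**
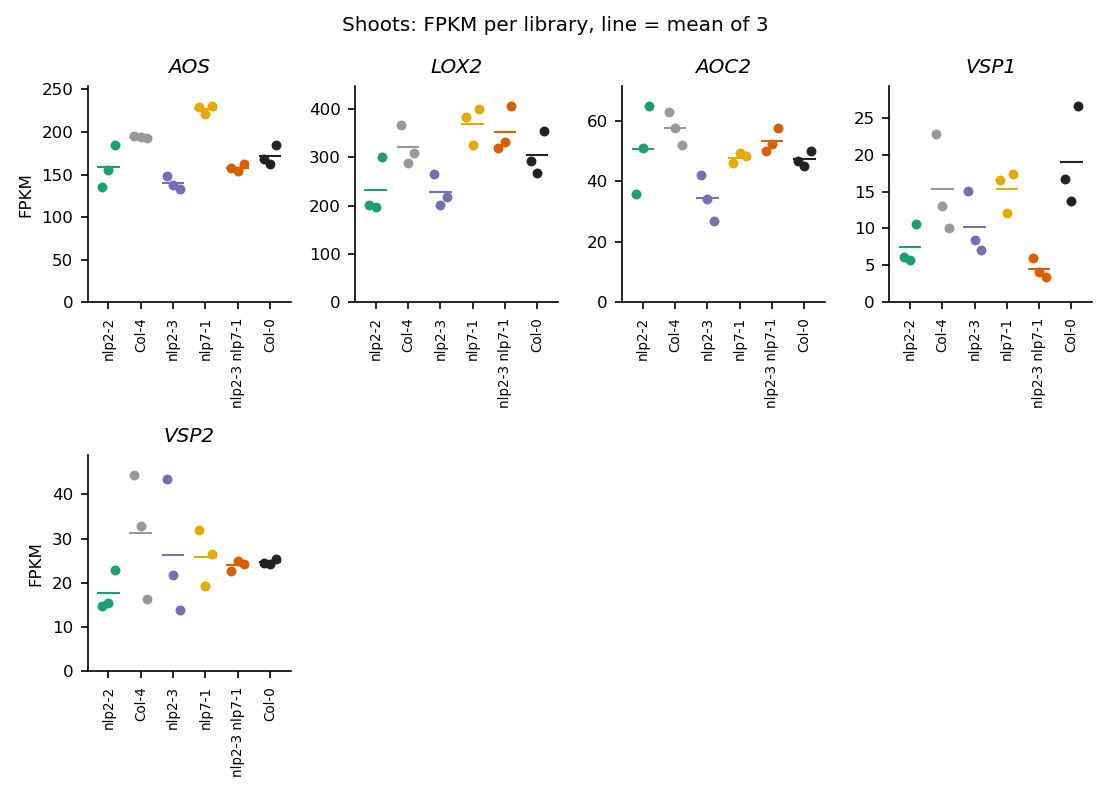
FPKM per shoot library (linear axes) of AOS, LOX2, AOC2, VSP1 and VSP2, with mutants to the left of their wild type and a line at the mean of 3 replicates. AOS is highest in nlp7-1 (221 to 231 FPKM), and VSP1 is lowest in nlp2-3 nlp7-1 (3.44 to 5.97 FPKM) while VSP2 there (22.7 to 24.9 FPKM) lies near Col-0 (24.3 to 25.4 FPKM).

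VSP1 had 5.97, 4.12 and 3.44 FPKM in double mutant shoots, against 16.7, 13.7 and 26.6 FPKM in Col-0 shoots (-2.09 ± 0.42, adjusted p = 0.00227). Of the 10 genes 1, VSP1, was called in this comparison, against 31.1% of all genes. All 3 double mutant libraries were below all 3 Col-0 libraries, where 45% of all shoot genes did not overlap, and the call held in all 13 settings with log2 fold changes of -2.35 to -1.79. VSP2 had 22.7, 24.9 and 24.2 FPKM in double mutant shoots, against 24.5, 24.3 and 25.4 FPKM in Col-0 shoots (-0.07 ± 0.41, adjusted p = 0.919), a nearly equal level. Against nlp7-1 shoots, with 16.6, 12.1 and 17.3 FPKM, VSP1 was also lower in the double mutant (-1.81 ± 0.42, adjusted p = 0.0205), a call that ended when any 1 of nlp7-1 replicates 1 and 3 and double mutant replicates 2 and 3 was removed (adjusted p of 0.0597 to 0.0875). Against nlp2-3 shoots, with 15.1, 8.4 and 7.12 FPKM, it lay just outside the threshold (-1.23 ± 0.44, adjusted p = 0.0553) and was called by the DESeq2 Wald test. Other markers moved with these shoot libraries: the leaf list summed to 58500 to 60000 FPKM in double mutant shoots and 61600 to 65000 FPKM in Col-0 shoots, and the root list to 17.8 to 20.3 FPKM in double mutant shoots and 12.5 to 15.6 FPKM in Col-0 shoots, with 3 of its 7 genes at 0 in every library of either group. The floral list summed to 0.132 to 0.306 FPKM in double mutant shoots and 0.478 to 0.61 FPKM in Col-0 shoots. The part of these markers in the VSP1 result was not tested.

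The ratio of VSP1 to VSP2 FPKM, a quantity chosen after the values were seen, was 0.263, 0.166 and 0.142 in double mutant shoots, against 0.683, 0.565 and 1.05 in Col-0 shoots. In roots it was 0.394, 0.459 and 0.421 in the double mutant, against 0.405, 0.377 and 0.371 in Col-0. The shoot ratio was also below every Col-0 shoot library in nlp2-3 shoots (0.347, 0.385 and 0.515) and nlp2-2 shoots (0.419, 0.376 and 0.464), and nlp2-2 overlapped with Col-4 shoots (0.514, 0.395 and 0.615). In roots it was above every Col-0 library in nlp2-3 (0.576, 0.431 and 0.615) and in nlp2-2 (0.53, 0.647 and 0.477). A lower shoot ratio was thus not confined to the double mutant. An exact permutation test of the log2 ratio gave p = 0.1 for the double mutant against Col-0 shoots. That is the smallest p possible with 3 libraries per group, so the test cannot decide. In nlp2-2 shoots VSP1 had 6.14, 5.79 and 10.6 FPKM, against 22.8, 13 and 10.1 FPKM in Col-4 shoots (-1.03 ± 0.41, adjusted p = 0.269). VSP2 had 14.7, 15.4 and 22.8 FPKM in nlp2-2 shoots, against 44.4, 32.9 and 16.4 FPKM in Col-4 shoots (-0.83 ± 0.41, adjusted p = 0.426). The Col-4 shoots varied widely for both genes and overlapped with nlp2-2. Set against Col-0, nlp2-2 shoots gave no call in 10 genes by edgeR (7.11% of all genes) and 1 by DESeq2. VSP1 there was at -1.30 ± 0.41 (adjusted p = 0.0771), the 1 gene with an unadjusted p under 0.05, and was called with the replicate block (adjusted p = 0.0496). In nlp2-2 roots against Col-0 roots none of 7 was called by edgeR or DESeq2 (8.6% of all genes), and 0 had an unadjusted p under 0.05.

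The other shoot genes showed no call against wild type in any mutant. LOX3 had its lowest mean in nlp7-1, with 5.64, 5.35 and 6.36 FPKM, against 9.15, 7.89 and 7.94 FPKM in Col-0 shoots, without overlap, as for 28.3% of all genes (-0.52 ± 0.25, adjusted p = 0.238). LOX2 had 383, 325 and 401 FPKM in nlp7-1 shoots and 265, 202 and 218 FPKM in nlp2-3 shoots, against 293, 268 and 354 FPKM in Col-0 shoots (0.29 ± 0.18 and -0.41 ± 0.18, adjusted p = 0.391 and 0.28). Neither LOX2 difference was called, and both share the Col-0 libraries. LOX4, LOX6, AOC1 and OPR3 had log2 fold changes between -0.27 and 0.33 in the 4 mutants. AOC2 had 42, 34.2 and 27 FPKM in nlp2-3 shoots, against 46.8, 45.1 and 49.9 FPKM in Col-0 shoots. The groups did not overlap, as for 21.8% of all genes, and AOC2 was not called (-0.45, adjusted p = 0.255). In the other mutants AOC2 lay between -0.19 and 0.15. No gene was called between the wild types, Col-4 against Col-0, among 7 in roots (0.0391% of all genes) or 10 in shoots (0.789%), by edgeR or DESeq2, and 0 and 1 had an unadjusted p under 0.05. The interaction in shoots was called for none of the 10 by either tool (3.76% of all genes), with 1 unadjusted p under 0.05, that of AOS. It was -0.95 ± 0.57 for VSP1 (adjusted p = 0.472) and -0.27 ± 0.11 for AOS (adjusted p = 0.239).

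**Figure D4:**
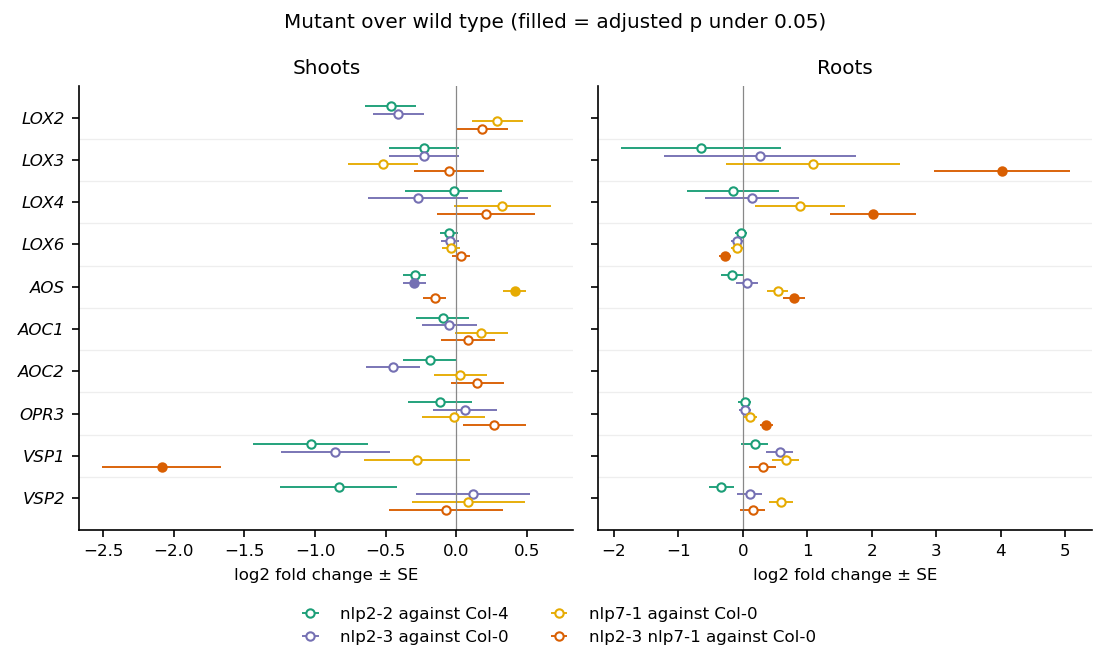
Log2 fold change of mutant over wild type with its SE for each tested gene in shoots and in roots, filled where the adjusted p was under 0.05. The filled points are AOS in nlp7-1 and nlp2-3 shoots, VSP1 in double mutant shoots, and LOX3, LOX4, LOX6, AOS and OPR3 in double mutant roots, and the 2 panels have different axes.

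In the double mutant the difference of effects between the tissues was tested over all 36 libraries. It was called for 3 of the 10 genes, beside 23.2% of all genes. The effect in shoots minus that in roots was -2.40 ± 0.47 for VSP1 (adjusted p = 0.000439), -0.95 ± 0.20 for AOS (adjusted p = 0.000644) and -4.08 ± 1.09 for LOX3 (adjusted p = 0.00741). The LOX3 value is a description only. Its root side rests on 8, 0 and 1 counts in Col-0 and mainly on replicate 2 of the double mutant (154 counts). VSP1 and AOS stayed called in all 19 alternative settings. LOX3 lost its call in 3 of them, without double mutant root replicate 2 (-2.05, adjusted p = 0.137), by limma on log2(FPKM + 1) (-0.69, adjusted p = 0.112) and with only the compared groups (-4.09, adjusted p = 0.116). LOX4 (-1.81 ± 0.75, adjusted p = 0.0856) and LOX6 (0.30 ± 0.12, adjusted p = 0.0781) were not called. None of the 10 was called by edgeR for nlp2-2 (2.64% of all genes), nlp2-3 (4.23%) or nlp7-1 (6.39%), and DESeq2 called 0, 1 and 0. VSP1 was the 1 gene with an unadjusted p under 0.05 in each, at -1.23 ± 0.46, -1.45 ± 0.45 and -0.96 ± 0.44 (adjusted p = 0.174, 0.0665 and 0.209). For LOX2, AOC1 and AOC2 the root side of these differences rests on at most 10 counts a library and was not read.

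Within a tissue the synthesis genes varied together only in part. Over the 18 root libraries, log2 levels of LOX3 and LOX4 had a Pearson r of 0.847, AOS and LOX4 of 0.829, and LOX3 and OPR3 of 0.785, and the libraries share their depth range and the high double mutant replicate 2. LOX6 had r between -0.198 and -0.316 with the other 4 synthesis genes of roots. VSP1 and VSP2 had r = 0.672 with each other in roots and 0.554 in shoots. In shoots LOX2 and AOS had r = 0.723, AOC1 and LOX4 0.791, and LOX3 and OPR3 0.787, whereas LOX3 and AOS had -0.0307. These values describe 18 libraries of 6 genotypes and carry no test.

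Other genes were ranked by the Pearson r of their log2 CPM with the mean pattern of the synthesis genes or of the VSP genes over the 18 libraries of a tissue. In roots the 5 genes with the highest r to the mean of LOX3, LOX4, LOX6, AOS and OPR3 were PUP18 (0.901), the repressor gene JAZ2 (0.879), the receptor kinase gene PEPR1 (0.867), PGSIP7 (0.858) and OPCL1 (0.857), whose product activates the OPDA-derived acid for beta-oxidation. In shoots those nearest to the mean of the 8 synthesis genes were AT5G05600 (0.825), ELM1 (0.823), AT4G33920 (0.784), AT5G64400 (0.78) and AT2G44420 (0.774). The genes nearest to the VSP mean were AT3G15260 (0.858), AT3G60510 (0.837), FMO GS-OX2 (0.787), RIP3 (0.783) and XTH20 (0.739) in roots. In shoots they were VCL1 (0.808), AT1G35560 (0.763), AK-HSDH I (0.753), AT3G03550 (0.745) and the casein kinase I gene CKI1 (AT4G14340, 0.739). Neither VSP set holds a gene of the jasmonate lists.

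The rest of the jasmonate pathway was read from lists of named genes. The lists were chosen with earlier results of these data known, so their counts beside the background are descriptions. Double mutant roots are given first. Of the other synthesis genes 3 of 12 tested were higher and 1 lower than in Col-0 (list median -0.11, against 0.00499 over all genes), 4 called of 12 beside 25.2% of all genes. AOC3, the cyclase that shares the root with AOC4, had 43.9, 92.6 and 75.6 FPKM in double mutant roots, against 40.1, 36.7 and 35.1 FPKM in Col-0 roots (0.88 ± 0.21, adjusted p = 0.00582). OPCL1 had 32, 52.5 and 39.6 FPKM in double mutant roots, against 27.6, 19.7 and 21 FPKM in Col-0 roots (0.82 ± 0.16, adjusted p = 0.00112). Both were highest in double mutant replicate 2 without overlap between the groups, and both stayed called when it was left out. The peroxisomal importer gene PXA1 was higher (0.26 ± 0.05) and the desaturase gene FAD7 lower (-0.29 ± 0.10). The FAD7 call held in 7 of 13 settings, and ended without Col-0 replicate 1 or 3 or replicate 1 of the double mutant (adjusted p = 0.143, 0.1 and 0.214).

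Of the 12 JAZ repressor genes, 7 were higher and none lower in double mutant roots (list median 0.85, against 25.2% of all genes called). JAZ1 had 62.9, 144 and 102 FPKM in double mutant roots, against 38.5, 27.2 and 24.3 FPKM in Col-0 roots (1.73 ± 0.29, adjusted p = 0.000561). JAZ7 had 3.27, 7.53 and 2.43 FPKM in double mutant roots, against 1.18, 0.853 and 0.119 FPKM in Col-0 roots (2.56 ± 0.45, adjusted p = 0.000317). JAZ4 had 15.9, 13.8 and 14.2 FPKM in double mutant roots, against 4.02, 3.36 and 5.36 FPKM in Col-0 roots (1.74 ± 0.16, adjusted p = 9.77e-08). None of the 3 overlapped, JAZ1 and JAZ7 were highest in replicate 2, and JAZ4 was even across the replicates. JAZ4 was also higher in roots of nlp2-2 against Col-4 (1.31 ± 0.16), nlp2-3 (1.27 ± 0.16) and nlp7-1 (0.63 ± 0.16, a call that held in 9 of 13 settings). The nlp7-1 call of JAZ4 ended without Col-0 replicate 1 or 2 or nlp7-1 replicate 3, with adjusted p-values of 0.0539, 0.109 and 0.131. Other JAZ genes did not all follow JAZ4 in the single mutants. Of the 12, 1 was higher and 3 lower in nlp2-2 against Col-4 roots (7.12% of all genes called). Against Col-0 roots, 2 were higher and 2 lower in nlp2-2 (8.6%), 2 and 0 in nlp2-3 (6.84%), and 1 and 0 in nlp7-1 (7.95%).

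Genes that conjugate or inactivate jasmonate were called higher in double mutant roots in 4 of 10 cases and lower in none, beside 25.2% of all genes called. CYP94B1, a hydroxylase of the active conjugate, had 2.46, 3.07 and 1.66 FPKM in double mutant roots, against 1.09, 0.462 and 0.552 FPKM in Col-0 roots (1.71 ± 0.33, adjusted p = 0.000612). The related CYP94B3 had 1.2, 3.41 and 1.16 FPKM in double mutant roots, against 0.805, 0.197 and 0.307 FPKM in Col-0 roots (2.06 ± 0.52, adjusted p = 0.00715), a call that ended without double mutant replicate 2 (adjusted p = 0.0584). JAR1, which makes the active conjugate, had 114, 107 and 106 FPKM in double mutant roots, against 81.6, 74 and 81.1 FPKM in Col-0 roots (0.43 ± 0.06, adjusted p = 4.83e-05). JAR1 was higher in roots of all 4 mutants, with log2 fold changes of 0.34 ± 0.06 for nlp2-2, 0.39 ± 0.06 for nlp2-3 and 0.28 ± 0.06 for nlp7-1. The nlp7-1 call ended without Col-0 replicate 2 or nlp7-1 replicate 2 (adjusted p = 0.0579 and 0.0681). In shoots JAR1 was lower in the double mutant (-0.43 ± 0.07, adjusted p = 2.46e-05) and in nlp7-1 (-0.24 ± 0.07, adjusted p = 0.0225). The nlp7-1 shoot call of JAR1 held in 8 of 13 settings, ending without Col-0 replicate 2 or 3 or any nlp7-1 replicate (adjusted p of 0.0543 to 0.147).

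In double mutant shoots 0 of 11 JAZ genes were called by edgeR or DESeq2 (list median -0.01), beside 31.1% of all genes, and 1 had an unadjusted p under 0.05. Of the 9 other MYC-branch response genes tested, 4 were lower and 1 higher than in Col-0, beside 31.1% of all genes called (list median -0.52, against -0.00693 over all genes). NATA1, an acetyltransferase gene, had 3.93, 2.47 and 3.21 FPKM in double mutant shoots, against 14.5, 9.3 and 28.3 FPKM in Col-0 shoots (-2.44 ± 0.53, adjusted p = 0.00388). TAT3, an aminotransferase gene induced by jasmonate, had 4.48, 4.51 and 3.04 FPKM in double mutant shoots, against 17.9, 13.2 and 29.3 FPKM in Col-0 shoots (-2.35 ± 0.32, adjusted p = 0.000123). As for VSP1, Col-0 replicate 3 was the highest library for NATA1 and TAT3, and the groups did not overlap. KTI1, a protease inhibitor gene, was higher (1.74 ± 0.43, adjusted p = 0.00255).

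TAT3 was lower in shoots of the single mutants as well. It had 2.59, 2.7 and 1.67 FPKM in nlp2-3 shoots, against 17.9, 13.2 and 29.3 FPKM in Col-0 shoots (-3.09 ± 0.35, adjusted p = 7.93e-05). In nlp7-1 shoots it had 7.73, 7.77 and 8.64 FPKM (-1.30 ± 0.30, adjusted p = 0.0165), no longer called once Col-0 replicate 3, nlp7-1 replicate 1 or nlp7-1 replicate 2 was removed (adjusted p = 0.0713, 0.0636 and 0.0594). In nlp2-2 shoots TAT3 had 3.36, 7.45 and 6.94 FPKM, against 21.5, 16.5 and 21 FPKM in Col-4 shoots (-1.75 ± 0.32, adjusted p = 0.00816). The nlp2-3 values were the lowest of all genotypes, below those of the double mutant.

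Of the ethylene-jasmonate (ERF) branch genes, 5 of 7 tested in double mutant shoots and 3 of 4 in double mutant roots were called lower and none higher, beside 31.1% and 25.2% of all genes called. Those not called were PDF1.2c (-4.50, adjusted p = 0.0762) and THI2.1 (-0.59, adjusted p = 0.646) in shoots and ERF1 (0.19, adjusted p = 0.819) in roots. Roots of the single mutants also had ERF-branch genes called lower and none higher. The counts were 3 of 4 in nlp2-2 against Col-4, 2 of 4 in nlp2-3 and 1 of 4 in nlp7-1. The shares of all genes called there were 7.12%, 6.84% and 7.95%. PR4 had 13.9, 15.1 and 24.2 FPKM in double mutant shoots, against 45.2, 66.7 and 128 FPKM in Col-0 shoots (-2.18 ± 0.42, adjusted p = 0.00167). CHIB, a basic chitinase gene, was lower in shoots (-2.20 ± 0.40, adjusted p = 0.000178) and in roots (-1.75 ± 0.15, adjusted p = 1.92e-07). ORA59, the transcription factor gene of this branch, had 1.81, 1.26 and 1.5 FPKM in double mutant roots, against 5.66, 4.47 and 7.06 FPKM in Col-0 roots (-1.95 ± 0.23, adjusted p = 2.73e-06). The defensin gene PDF1.2a was lower in shoots (-3.54 ± 1.02, adjusted p = 0.0192) in 9 of 13 settings, the call ending without Col-0 replicate 3 (adjusted p = 0.0899) or without double mutant replicate 1 or 2 (adjusted p = 0.0718 and 0.0675). In double mutant roots, then, called ERF-branch genes were lower and called JAZ genes higher. The other MYC-branch response genes did not rise there as a list. Of 5 tested, 1 was higher and 0 lower, beside 25.2% of all genes called (list median -0.33).

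**Figure D5:**
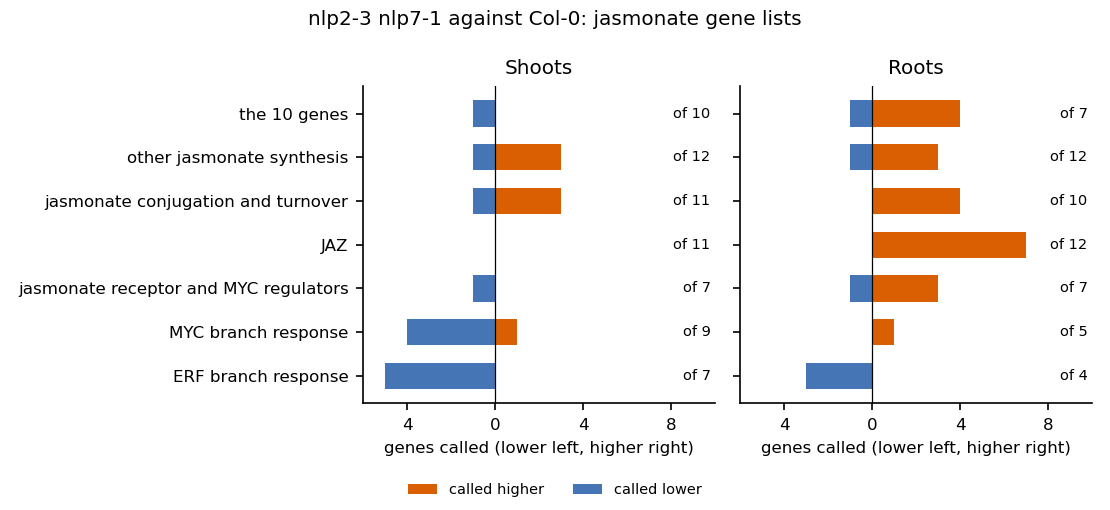
Number of genes called higher (right) and lower (left) in nlp2-3 nlp7-1 against Col-0 for each jasmonate gene list, in shoots and in roots, with the number tested at the right edge. In roots 7 of 12 JAZ genes are higher and 3 of 4 ERF-branch genes lower, and in shoots 5 of 7 ERF-branch and 4 of 9 MYC-branch genes are lower with no JAZ gene called; the 4 of the 10 genes higher in roots include LOX3.

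Elsewhere in double mutant shoots, synthesis showed small shifts at the cyclase step. AOC4 had 23.7, 25.3 and 23.4 FPKM in double mutant shoots, against 32.7, 32.9 and 38.3 FPKM in Col-0 shoots (-0.55 ± 0.09, adjusted p = 2.73e-05). The share of AOC2 in the summed cyclase FPKM was 50.7 ± 3.1% in double mutant shoots and 43.8 ± 1.3% in Col-0 shoots, and the share of AOC4 was 23.0 ± 0.85% and 32.1 ± 1.1% (SD, n = 3 each). The sum itself was 105 ± 4.1 FPKM in double mutant shoots and 108 ± 8.9 FPKM in Col-0 shoots, so the family total differed by less than the replicate spread. Of the regulators, MYC2 was listed at 0 in all 36 libraries; in the TAIR10.1 annotation it overlaps a neighbouring gene, and its level was not read. MYC4 was higher in double mutant roots (0.29 ± 0.06, adjusted p = 0.00192), and JAM3, a repressor of the same family, was lower in double mutant shoots (-0.25 ± 0.07, adjusted p = 0.00754).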

How the data were processed

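Total RNA was taken from roots and rosettes with a column kit including DNase, and libraries were made with a NEBNext Ultra RNA kit, per the labels' protocols. The authors deposited raw counts per gene and FPKM for 36 libraries. Per the submitters' processing notes, HISAT2, HTSeq and TAIR10 were used, with versions, gene models and strand setting not given in the sources used here, so overlapping and antisense genes are uncertain. The deposited FPKM values were checked to follow from the counts, the column sums and 1 length per gene over 11125 genes. Gene names came from a TAIR10.1 table, which held all 102 listed locus codes. No coordinates are printed since the build differs by name.

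Genes with low counts were removed by filterByExpr, set to a count of 10 and a total of 15, and the rest scaled by TMM and tested with the two-sided quasi-likelihood test of edgeR 4.0.16 in R 4.3.3, fitted to all 18 libraries of a tissue (12 residual degrees of freedom) or all 36 (24) for tissue comparisons. The Benjamini-Hochberg method adjusted p over 20486 genes in roots, 19137 in shoots and 21554 in both, and a gene was called below 0.05. SE is the log2 fold change over the square root of F. Alternatives in the 23 comparisons were DESeq2 1.42.0, its size factors, no filter, limma 3.58.1 on log2(FPKM + 1) and log2(FPKM + 0.1), only the compared groups, a replicate block, and leaving out each library. The test was checked on simulated root counts with the same dispersion for every gene, no outlying library and no changed gene at low counts. That check does not cover calls that rest on an outlying library or on low counts.

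Same-numbered libraries deviated together (every correlation over 0.1) in 7 of 16 genotype comparisons: nlp2-2 against Col-4 and nlp2-3 against Col-0 in both tissues, nlp7-1 against Col-0 and Col-4 against Col-0 in shoots, and the double mutant against nlp7-1 in roots. The pairing comes from the replicate numbers in the labels. All 10 genes are named whether called or not. From each other list up to 4 called genes per comparison, by size among those with at least 1 CPM, may be named. Likeness was ranked over genes of at least 5 CPM. The genes and lists were chosen with earlier results of these data known. Ratios of counts use a floor of 3 counts and 95% intervals.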

Additional observations from a re-analysis of the deposited data

Results flagged for a closer look

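A difference between shoots and roots in the effect of the double mutant was called for 3 of the 10 genes, in the fit of both tissues. Of all genes tested there, 23.2% were called. The difference, shoots minus roots, was -2.398 for VSP1, whose log2 fold change against Col-0 was -2.09 in shoots and 0.31 in roots. It was -0.9523 for AOS, at -0.15 in shoots and 0.80 in roots, and -4.08 for LOX3, at -0.05 in shoots and 4.02 in roots. The LOX3 value is a description only, because of its low root counts. The LOX3 call ended without replicate 2 of the double mutant roots (-2.047, adjusted p = 0.137), by limma on log2(FPKM + 1) (-0.6892, adjusted p = 0.112) and with only the compared groups (-4.086, adjusted p = 0.116).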

How the results depend on the processing

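The number of the 10 genes called kept within 1.5 times of its value in most settings, and the exceptions follow, with the reported number in brackets. With only the compared groups fitted it was 1 for nlp2-2 against Col-4 roots [0], 1 for nlp2-3 against Col-0 roots [0], 3 for nlp7-1 against Col-0 roots [0], 1 for the double mutant against Col-0 roots [5], 0 for the double mutant against nlp2-3 roots [3], 2 for nlp7-1 against Col-0 shoots [1], 2 for the double mutant against Col-0 shoots [1] and 1 for the nlp2-3 effect in shoots minus roots [0]. By DESeq2 it was 1 for nlp2-3 against Col-0 roots [0], 3 for nlp7-1 against Col-0 roots [0], 1 for the double mutant against nlp7-1 roots [0], 1 for nlp2-2 against Col-4 shoots [0], 1 for nlp2-2 against Col-0 shoots [0] and 1 for the nlp2-3 effect in shoots minus roots [0]. By limma with either pseudocount it was 1 for nlp7-1 against Col-0 roots, nlp2-2 against Col-4 shoots and the nlp2-3 effect in shoots minus roots [0 each], and with a pseudocount of 1 it was 3 for the double mutant against Col-0 roots [5]. Without the filter it was 1 for the double mutant against nlp2-3 roots [3]. With the replicate block it was 0 for nlp2-3 against Col-0 shoots [1], where the numbers pair, and 1 for nlp2-2 against Col-0 shoots [0], where they do not. The replicate block moved no other count by over 1.5 times, although AOC2 in the double mutant against nlp2-3 shoots lost its call and VSP1 there gained one. The cause of these changes was not tested.

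Leaving out 1 library at a time gave 1 to 5 for the double mutant against Col-0 roots, 0 to 3 against nlp2-3 roots, 0 to 1 against nlp7-1 roots, 0 to 2 against nlp2-3 shoots, 1 to 2 against nlp7-1 shoots, 0 to 1 for nlp7-1 against Col-0 roots, 0 to 2 for nlp2-2 against Col-4 shoots and against Col-0 shoots, 0 to 1 for nlp2-3 against Col-0 shoots, 0 to 1 for the nlp2-3 effect and 2 to 5 for the double mutant effect in shoots minus roots. The other 12 comparisons kept their number.

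Between tissues, limma on log2(FPKM + 1) and log2(FPKM + 0.1), which keep library totals, turned Col-0 shoots against Col-0 roots for LOX6 (-0.5572 and -0.5862), ACX1 (-0.01541 and -0.01572), PED1 (-0.4411 and -0.4468), AIM1 (-0.09022 and -0.09191), PXA1 (-0.002638 and -0.002814), MYC3 (-0.3814 and -0.3899) and NLP2 (-0.2498 and -0.2642). AOS in nlp2-2 against Col-0 shoots, not called, turned to 0.0122 without nlp2-2 replicate 1 and reached -0.2313 without nlp2-2 replicate 3. Over all genes the number called moved by over 1.5 times as follows, with the reported number in brackets. With only the compared groups it was 659 for nlp2-3 against Col-0 roots [1401], 694 for the double mutant against nlp2-3 roots [1327], 1140 for nlp2-2 against Col-0 roots [1762] and 882 for nlp2-2 against Col-0 shoots [1360]. By DESeq2 it was 20 for Col-4 against Col-0 roots [8], 332 for Col-4 against Col-0 shoots [151], 149 for the root interaction [49] and 899 for the nlp2-2 effect in shoots minus roots [569], which was 1046 by limma with a pseudocount of 1. With the replicate block it was 18 for Col-4 against Col-0 roots, 77 for the root interaction, 2110 for nlp2-2 against Col-0 shoots, 621 for Col-4 against Col-0 shoots, where the numbers pair, and 1234 for the shoot interaction [719]. Leaving out 1 library gave as few as 846 for nlp2-2 against Col-4 roots [1458], 857 for nlp2-3 against Col-0 roots, 1013 for nlp7-1 against Col-0 roots [1628], 870 and 824 for the double mutant against nlp2-3 and nlp7-1 roots [1327 and 1334], 987 for nlp2-2 against Col-0 roots, 23 for the root interaction, 338 for nlp2-2 against Col-4 shoots [587], 955 for nlp7-1 against Col-0 shoots [1870], 922 for the double mutant against nlp7-1 shoots [1530], 587 for nlp2-2 against Col-0 shoots, 50 for Col-4 against Col-0 shoots and 802 for the nlp7-1 effect in shoots minus roots [1378], and as many as 18 for Col-4 against Col-0 roots. Depth limits LOX2, LOX3, AOC1 and AOC2 in roots, with at most 10 counts a library outside the double mutant.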
